A study of Saccharomyces cerevisiae with 12 samples.

Results

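The cytosolic Hsp70 machinery of budding yeast was followed through 10 reading frames of a comparison of san1 mutant cells with cells carrying SAN1. They are the Hsp70 genes SSA1 (YAL005C), SSA2 (YLL024C), SSA3 (YBL075C), SSA4 (YER103W), SSB1 (YDL229W) and SSB2 (YNL209W), the Hsp110 genes SSE1 (YPL106C) and SSE2 (YBR169C), the exchange factor gene FES1 (YBR101C), and YAL004W, a frame that overlaps SSA1. Members were picked by name, with earlier results of these data known. All 10 were among the 5890 genes tested out of 6177 on the arrays. Total RNA of san1 and of SAN1 cells was hybridized together on each of 12 2-channel arrays, 6 with cells grown in the medium labelled YC and 6 with cells grown in YEPD, a rich medium. In each medium 3 arrays (numbers 1 to 3) had the san1 RNA in channel 2 and 3 arrays (numbers 4 to 6) had it in channel 1. The labels give neither the san1 allele, nor the strain background, nor the culture behind each array, so p-values measure the spread between arrays, part of which may be technical.

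Hsp70 proteins are chaperones that bind and release unfolded stretches of other proteins in a cycle driven by ATP. J-domain proteins (Hsp40) start ATP hydrolysis, which closes the chaperone on its client, and nucleotide exchange factors such as the Hsp110 proteins and Fes1 open it again. In yeast, Ssa1 and Ssa2 are made at all times, Ssa3 and Ssa4 are made mainly under stress, and Ssb1 and Ssb2 work at the ribosome on newly made chains. The heat shock factor Hsf1 drives many of these genes and is itself held in check by Ssa proteins. San1 is a nuclear ubiquitin ligase that targets misfolded proteins to the proteasome, and Hsp70 is known to help deliver cytosolic misfolded proteins to it.

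All values below are log2 ratios of san1 over SAN1, so that a positive value means more of a transcript in mutant cells, and each array was centred on its median. The deposited table does not name its log base, and base 2 was assumed. SAN1 itself stood between -4.57 and -2.69 in YC and between -3.94 and -3.39 in YEPD, below 0 on 12 of 12 arrays. That row was also used to decide which channel is the numerator, so it is no independent check of the labels. An array held 5836 to 6180 log ratios. Changes were fitted with limma, with 1 term for the dye orientation, and called at a Benjamini-Hochberg adjusted p under 0.05 over all 5890 genes.

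In YC, 5 of the 10 frames rose in san1 cells (SSA4, SSA1, SSA2, SSE2 and YAL004W), SSB1 fell, and 4 did not pass. In YEPD, SSA1, SSA2 and YAL004W rose and 7 did not pass. The rows of SSA1, SSA2 and YAL004W may read shared RNA, as described below, so in each medium their calls may not be separate changes. The background differed widely between the media: 24.8% of all genes tested were called in YC (13.0% higher and 11.8% lower), against 2.04% in YEPD (1.71% higher and 0.323% lower). The median change of the 10 was 0.23 in YC and 0.12 in YEPD, and 8 of 10 fitted changes were above 0 in each medium. The median over all genes was -0.002 in YC and 0.002 in YEPD. The difference between the media passed for SSA4 alone among the 10. Of all genes tested, 9.75% passed it, 5.48% with the higher value in YC and 4.26% with the lower one.

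**Figure D1:**
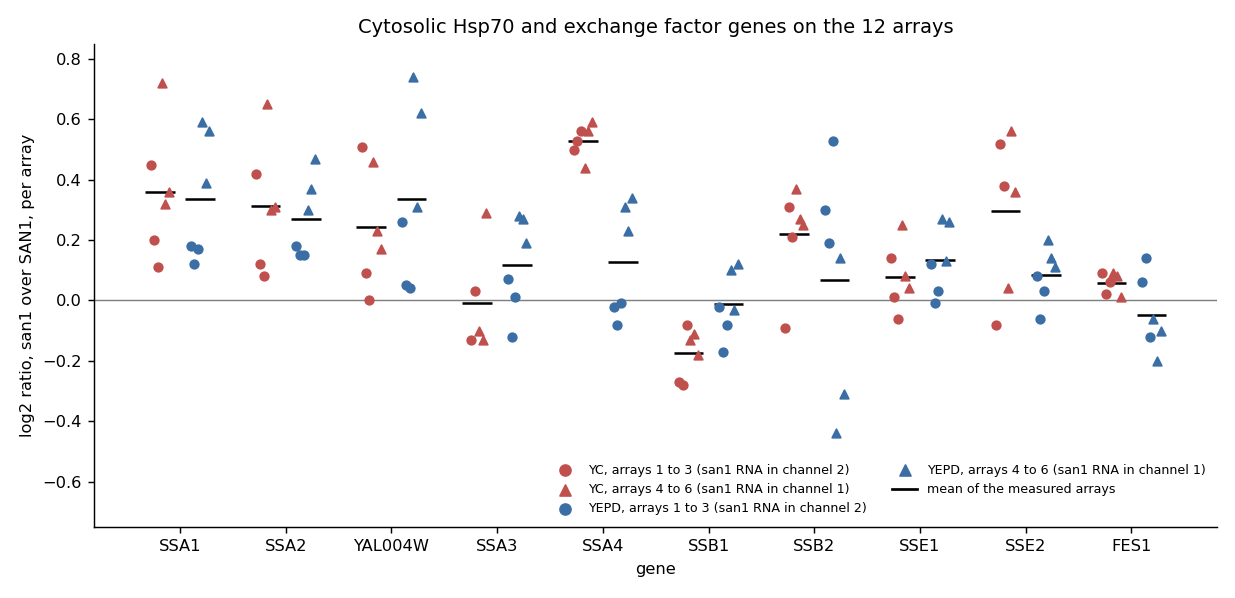
Log2 ratio of san1 over SAN1 (vertical axis) for each of the 10 frames (horizontal axis) on every array, with YC in red on the left and YEPD in blue on the right of each pair. Circles are arrays 1 to 3, triangles arrays 4 to 6, and black bars the means: SSA4 lies between 0.44 and 0.59 on the YC arrays, above all YEPD arrays, and SSA1 and SSA2 lie above 0 on all 12.

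SSA1 and SSA2 encode the Ssa proteins present in unstressed cells. SSA1 stood at 0.45, 0.20, 0.11, 0.72, 0.32 and 0.36 on YC arrays 1 to 6, and at 0.18, 0.12, 0.17, 0.59, 0.39 and 0.56 on YEPD arrays 1 to 6. It was above 0 on every array, the ranges of the media overlapped, and the 3 YEPD arrays with the san1 RNA in channel 1 were the higher ones there. The fitted change was 0.36 in YC (SE 0.0553, n = 6 arrays, limma adjusted p = 0.00097), a 1.28-fold increase, and 0.34 in YEPD (SE 0.0553, n = 6 arrays, limma adjusted p = 0.004), a 1.26-fold increase. SSA2 stood at 0.42, 0.12, 0.08, 0.65, 0.30 and 0.31 in YC, and at 0.18, 0.15, 0.15, 0.30, 0.37 and 0.47 in YEPD. It too was above 0 on all 12 arrays, a pattern that 1.19% of all genes tested shared. Its fitted change was 0.32 in YC (SE 0.0514, limma adjusted p = 0.0014) and 0.27 in YEPD (SE 0.0514, limma adjusted p = 0.012). Without YC arrays 1 and 4, the YC change was 0.25 for SSA1 (limma adjusted p = 0.0023) and 0.20 for SSA2 (limma adjusted p = 0.0016). Being called higher in each of the media was shared by 59 of the 5890 genes (1.0%).

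For neither gene did the change differ between the media beyond its error. The difference, YC minus YEPD, was 0.02 for SSA1 (95% confidence interval -0.14 to 0.19, limma adjusted p = 0.87) and 0.04 for SSA2 (-0.11 to 0.20, limma adjusted p = 0.73). The calls in YEPD depend on taking the 12 arrays as 12 replicates: when arrays 1 and 4, 2 and 5, and 3 and 6 of a medium were averaged, as would suit dye swaps of shared RNA samples, the adjusted p in YEPD became 0.066 for SSA1 and 0.14 for SSA2, with fitted changes of 0.34 and 0.27 as before. SSA2 also lost its YEPD call without the dye term (adjusted p = 0.066), without YEPD array 1 (0.051) and without YEPD array 6 (0.06).

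SSA1 and SSA2 are near-identical in sequence, so a probe for one may read RNA of the other, and these rows may not be separate measurements of the 2 genes. Across the 12 arrays their values differed by 0.095 (root mean square, log2). Of 4651 genes measured on all 12 arrays, none lay closer to SSA1 than SSA2 did, and none lay closer to SSA2 than SSA1 did. In YC, SSA1 was above SSA2 on 6 of 6 arrays, by 0.02 to 0.09.

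YAL004W is a reading frame that overlaps SSA1, and the sources used here do not say which strand its probe reads. It stood at 0.51, 0.09, 0.00, 0.46, 0.23 and 0.17 in YC, and at 0.26, 0.05, 0.04, 0.74, 0.31 and 0.62 in YEPD. Arrays 1 and 4 were the highest in YC and arrays 4 and 6 in YEPD, as for SSA1. The fitted change was 0.24 in YC (SE 0.0767, limma adjusted p = 0.034) and 0.34 in YEPD (SE 0.0767, limma adjusted p = 0.041). These calls were the least firm of the 10 frames: the YC call was lost without YC arrays 1 and 4 (0.12, adjusted p = 0.22), and the YEPD call was lost in 9 of the 12 fits that left out a single array (0.28 to 0.37, adjusted p 0.051 to 0.18). Both calls were lost with arrays n and n plus 3 averaged (0.24 in YC, adjusted p = 0.083, and 0.34 in YEPD, adjusted p = 0.15) and without the dye term (adjusted p = 0.076 in YC and 0.11 in YEPD). With YEPD arrays 4 and 6 averaged into 1, the YEPD change was 0.29 (adjusted p = 0.18). Signal from SSA1 RNA and from a separate transcript of YAL004W cannot be told apart with this table. The gene on the other side, EFB1, encoding a translation elongation factor subunit, stood at 0.00 in each medium.

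SSA4 encodes a stress-induced Ssa protein and showed the largest change of the 10. On YC arrays 1 to 6 it stood at 0.50, 0.53, 0.56, 0.44, 0.56 and 0.59, and on YEPD arrays 1 to 6 at -0.02, -0.08, -0.01, 0.31, 0.23 and 0.34. Every YC array lay above every YEPD array, as for 2.12% of all genes tested, and within YEPD the 2 dye orientations did not overlap. The mean was 0.531 ± 0.054 in YC and 0.128 ± 0.184 in YEPD (SD, n = 6 arrays each). The fitted change in YC was 0.53 (SE 0.0427, limma adjusted p = 1.3e-05), a 1.44-fold increase, which placed it 8th from the top of the 5890 genes. Were the deposited values natural logarithms, it would be 1.70-fold.

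In YEPD the change of SSA4 was 0.13 (SE 0.0427, limma adjusted p = 0.24). Its mean there was 0.29 on arrays 4 to 6 and -0.04 on arrays 1 to 3, against 0.53 in each orientation in YC. With a separate dye term for each medium the YEPD change of 0.13 passed (adjusted p = 0.035), as it did in a fit of the YEPD arrays alone (adjusted p = 0.044). The difference between the media was 0.40 (SE 0.0604, 95% confidence interval 0.27 to 0.53, limma adjusted p = 0.0042). It kept its value of 0.40 when arrays n and n plus 3 were averaged, but missed the threshold there (adjusted p = 0.055), in a fit that called 3 genes in all for this contrast.

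SSA3, the other stress-induced Ssa gene, did not pass in either medium. It stood at -0.13, 0.03, -0.10, -0.13 and 0.29 on YC arrays 2 to 6, with no value on array 1, and at 0.07, -0.12, 0.01, 0.28, 0.27 and 0.19 in YEPD. Positive and negative values were mixed in YC, and 5 of 6 YEPD values were above 0. The fitted change was -0.02 in YC (95% confidence interval -0.15 to 0.11, limma adjusted p = 0.79) and 0.12 in YEPD (0.00 to 0.23, limma adjusted p = 0.51). Both came from 1 fit over the 11 arrays that measured SSA3, 5 of them in YC. In YC the interval of SSA3 thus lay wholly below that of SSA4 (0.44 to 0.62).

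**Figure D2:**
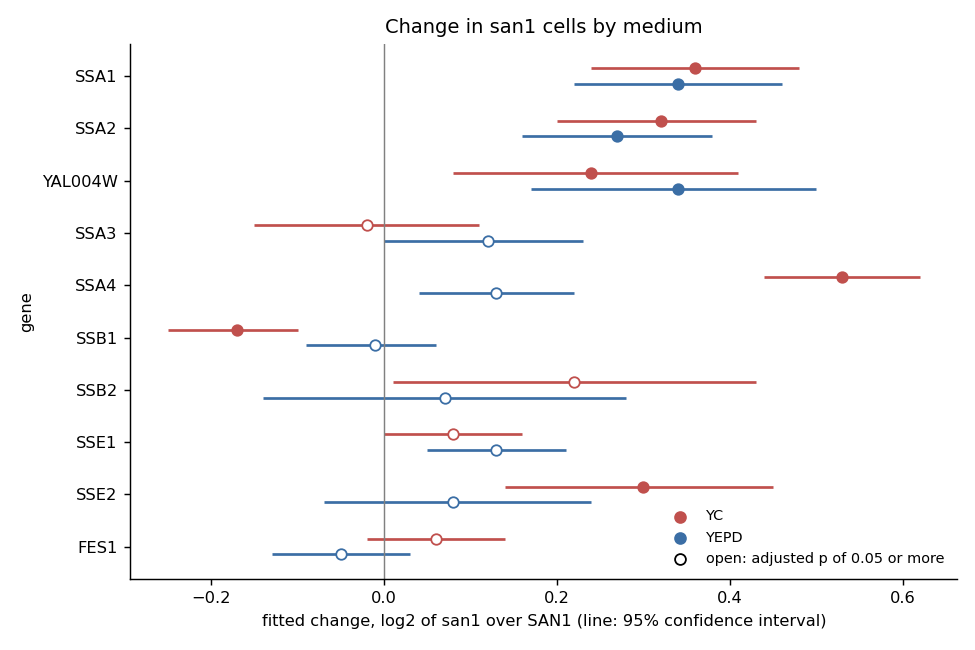
Fitted change of the 10 frames on the horizontal axis (log2 of san1 over SAN1), with YC in red above YEPD in blue and lines for 95% confidence intervals. Filled points passed an adjusted p of 0.05: SSA1, SSA2 and YAL004W are filled in each medium, and SSA4, SSB1 and SSE2 in YC.

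SSB1 and SSB2 encode the Hsp70 proteins that bind nascent chains at the ribosome. SSB1 stood at -0.27, -0.28, -0.08, -0.13, -0.11 and -0.18 on YC arrays 1 to 6, and at -0.02, -0.17, -0.08, 0.10, -0.03 and 0.12 in YEPD. All 6 YC values were below 0, as for 11.1% of all genes tested, and the YEPD values lay on both sides of 0. The fitted change was -0.17 in YC (SE 0.0355, limma adjusted p = 0.0045), a 1.13-fold decrease, and -0.01 in YEPD (95% confidence interval -0.09 to 0.06, limma adjusted p = 0.96). The difference between the media was -0.16 (95% confidence interval -0.27 to -0.05) and missed the threshold (limma adjusted p = 0.059). It passed without YC array 3 (adjusted p = 0.038) or without YEPD array 2 (adjusted p = 0.037).

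SSB2 had the widest spread of the 10 in YEPD (SD 0.371, n = 6 arrays). It stood at -0.09, 0.31, 0.21, 0.37, 0.27 and 0.25 on YC arrays 1 to 6, and at 0.30, 0.19, 0.53, -0.44, 0.14 and -0.31 in YEPD. In YC, array 1 was the only value below 0, and in YEPD arrays 4 and 6 lay far below the rest. The fitted change was 0.22 in YC (SE 0.0982, limma adjusted p = 0.12) and 0.07 in YEPD (SE 0.0982, limma adjusted p = 0.92). The YC change of 0.22 passed in a fit of the YC arrays alone (adjusted p = 0.033), with a dye term per medium (0.038) and with arrays n and n plus 3 averaged (0.032). Without YC array 1 it was 0.31 (adjusted p = 0.029). SSB1 and SSB2 are near-identical and may cross-hybridize, yet SSB2 lay above SSB1 on 6 of 6 YC arrays, by 0.19 to 0.59, and on 4 of 6 YEPD arrays. Their values differed by 0.424 (root mean square over the 12 arrays), against 0.095 for SSA1 and SSA2.

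The Hsp110 proteins Sse1 and Sse2 release nucleotide from Ssa and Ssb. SSE1, the more abundant in unstressed cells, stood at 0.14, 0.01, -0.06, 0.25, 0.08 and 0.04 in YC, and at 0.12, -0.01, 0.03, 0.27, 0.13 and 0.26 in YEPD. It was above 0 on 5 of 6 arrays of each medium and passed in neither. Its fitted change was 0.08 in YC (SE 0.0372, limma adjusted p = 0.14) and 0.13 in YEPD (SE 0.0372, limma adjusted p = 0.13).

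SSE2, the stress-induced Hsp110 gene, stood at -0.08, 0.52, 0.38, 0.04, 0.56 and 0.36 on YC arrays 1 to 6, and at 0.08, -0.06, 0.03, 0.20, 0.14 and 0.11 in YEPD. In YC, arrays 1 and 4 were near 0 and arrays 2 and 5 were highest. The fitted change was 0.30 in YC (SE 0.0721, limma adjusted p = 0.011), a 1.23-fold increase, and 0.08 in YEPD (SE 0.0721, limma adjusted p = 0.81). Without YC arrays 2 and 5 the YC change was 0.17 (adjusted p = 0.1), without YC arrays 1 and 4 it was 0.46 (adjusted p = 0.00011), and with arrays n and n plus 3 averaged it was 0.30 (adjusted p = 0.062). The difference between the media was 0.21 (95% confidence interval -0.01 to 0.43, limma adjusted p = 0.19). Without YC arrays 1 and 4 that difference was 0.37 (adjusted p = 0.0047), without YC array 1 alone 0.29 (adjusted p = 0.049), and without YC arrays 2 and 5 it was 0.09 (adjusted p = 0.54).

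FES1 encodes an exchange factor of Ssa that helps to release misfolded clients. It stood at 0.09, 0.02, 0.06, 0.09, 0.08 and 0.01 in YC, and at 0.06, 0.14, -0.12, -0.06, -0.20 and -0.10 in YEPD. All 6 YC values were above 0, as for 11.7% of all genes tested, and 4 of 6 YEPD values were below. Neither fitted change passed: it was 0.06 in YC (95% confidence interval -0.02 to 0.14, limma adjusted p = 0.25) and -0.05 in YEPD (-0.13 to 0.03, limma adjusted p = 0.79). Both intervals end below the fitted changes of SSA1. SNL1, a membrane-anchored exchange factor for cytosolic Hsp70, was at 0.13 in YC (limma adjusted p = 0.1) and -0.06 in YEPD (0.84).

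The called frames followed different courses over the YC arrays. SSA1, SSA2 and YAL004W were higher on arrays 1 and 4 than on the others, SSE2 was lowest on arrays 1 and 4, and the values of SSA4 spanned 0.15. The median of 32 general stress genes was -0.02, 0.56, 0.41, 0.02, 0.55 and 0.30 on YC arrays 1 to 6. SSE2 lay at most 0.07 from that median on any YC array, so the arrays on which SSE2 was high were those on which the stress genes were high by their median. The median of 24 other heat shock factor target genes was 0.05, 0.17, 0.23, 0.13, 0.25 and 0.12 on the same arrays, a narrower range. In YEPD the stress gene median stayed between -0.02 and 0.09. The part of this stress level in the YC change of SSE2 was not tested. SSA4 stood at 0.50 and 0.44 on YC arrays 1 and 4, where the stress median was near 0, and at 0.53 and 0.56 on arrays 2 and 5, where it was highest. The stress median and SSE2 were each close on YC arrays 1 and 4, on 2 and 5, and on 3 and 6. Whether such arrays share RNA was not tested. With them averaged, SSE2 and YAL004W lost their YC calls, SSB2 passed, and SSA1, SSA2, SSA4 and SSB1 kept theirs.

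**Figure D3:**
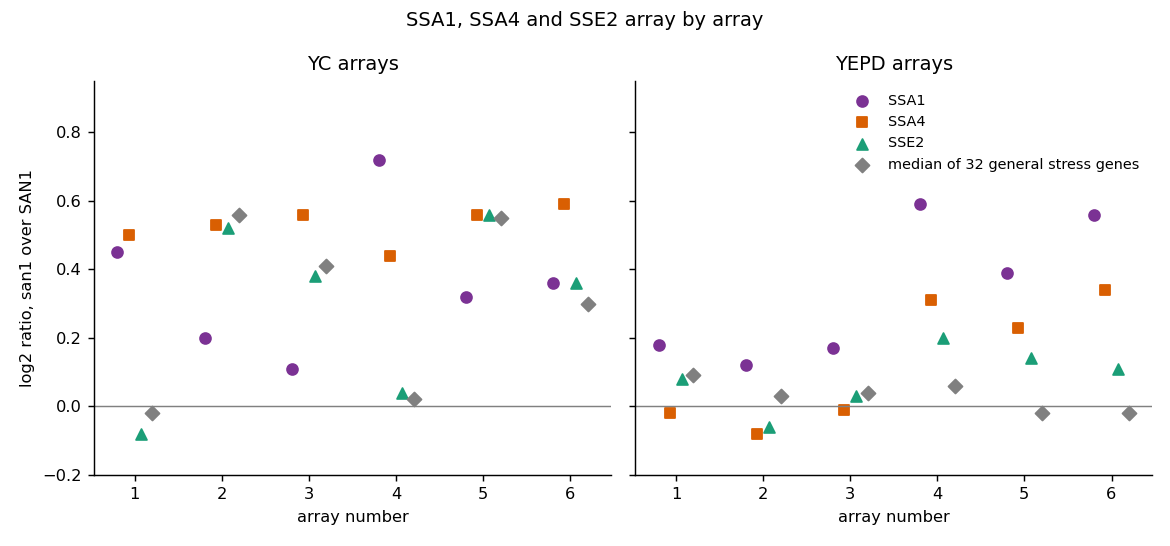
Log2 ratio of san1 over SAN1 (vertical axis) of SSA1, SSA4 and SSE2 on each array (horizontal axis), with the median of 32 general stress genes as grey diamonds, for YC on the left and YEPD on the right. In YC the SSE2 triangles sit beside the diamonds on all 6 arrays, SSA1 is highest on array 4 at 0.72, and SSA4 stays near 0.5.

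Genes whose partner proteins work with Hsp70 moved in part. The gene lists here and below were chosen with earlier results of these data known, so their counts are no independent test. For every list, the shares of all genes tested to set beside them are 13.0% higher and 11.8% lower in YC. In YEPD they are 1.71% higher and 0.323% lower. The J-domain genes are the first group: of 12, 3 rose in YC, 0 fell and 9 did not pass, with a median of 0.02 (13.0% of all genes rose). They were SIS1 (0.28, SE 0.0404), the essential nuclear and cytosolic partner of Ssa, YDJ1 (0.18, SE 0.0326), its most abundant partner, and CAJ1 (0.16, SE 0.036). In YEPD 0 of the 12 passed in limma (1 had an unadjusted p under 0.05), and SIS1 stood at 0.11 and YDJ1 at 0.06. Of 5 ribosome-associated chaperone genes, EGD2 of the nascent chain complex rose in YC (0.25, SE 0.0513), and SSZ1 (-0.14, SE 0.0304) and BTT1 (-0.13, SE 0.0297) fell. SSZ1 encodes the Hsp70-like partner of Zuo1 in the complex that stimulates Ssb, and ZUO1 stood at 0.01 (limma adjusted p = 0.88). In YEPD 0 of these 5 passed in limma, also at an unadjusted p of 0.05 (0 genes).

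Of 12 tested genes of Hsp90, its co-chaperones and the bridge between Hsp70 and Hsp90, 6 rose in YC and 2 in YEPD, and 0 fell in either medium. Of all genes tested, 13.0% rose in YC and 1.71% in YEPD. In YC, the 4 with the lowest p were CPR6 (0.31, SE 0.0342), HSC82 (0.42, SE 0.0533), STI1 (0.32, SE 0.0409) and HSP82 (0.39, SE 0.0596). Sti1 holds Hsp70 and Hsp90 together, and HSC82 and HSP82 are the Hsp90 genes, themselves close copies. In YEPD, STI1 (0.19, limma adjusted p = 0.026) and AHA1 (0.15, limma adjusted p = 0.033), the activator of the Hsp90 ATPase, rose, and HSP82 stood at 0.24 (0.059) and HSC82 at 0.21 (0.068). The group's median was 0.13 in YC and 0.04 in YEPD.

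Of 5 disaggregase and small stress protein genes, 4 rose in YC (13.0% of all genes did): HSP12 (1.04), HSP26 (0.96), HSP104 and HSP42. HSP26 (0.31, SE 0.0621) alone of the 5 rose in YEPD (1.71% of all genes did). HSP12 stood below 0 there (-0.28, limma adjusted p = 0.35), and these 2 had an unadjusted p under 0.05. The difference between the media for HSP12 was 1.33 (limma adjusted p = 0.0011). HSP104, the disaggregase that takes clients from Ssa1, rose by 0.46 in YC (SE 0.084) and stood at 0.14 in YEPD (limma adjusted p = 0.7). Of 3 genes for sorting and sequestering misfolded proteins, HSP42 (0.39, SE 0.0808) and BTN2 (0.15, SE 0.0418) rose in YC. In YEPD 0 passed in limma, and 1 had an unadjusted p under 0.05: BTN2, with a value below 0 (-0.09). HSP42 is the same gene as in the group of 5 and is counted in both. Among 6 tested Hsp70 and exchange factor genes of the mitochondria and the endoplasmic reticulum, MGE1, the mitochondrial exchange factor gene, rose in YC (0.22, SE 0.0526, limma adjusted p = 0.0096). That is 16.7% of the 6, near the 13.0% of all genes. The other 5, KAR2 of the endoplasmic reticulum among them (-0.03), did not pass in YC. In YEPD 0 of the 6 passed in limma, with 1 at an unadjusted p under 0.05 (KAR2, 0.14). HSF1, encoding the heat shock factor, stood at 0.01 in YC (SE 0.0291, limma adjusted p = 0.86) and 0.02 in YEPD (SE 0.0291, limma adjusted p = 0.93), and 0 of the 6 regulator genes, HSF1 included, passed in limma in either medium. At an unadjusted p under 0.05 it was 1 in YC (HAC1, with a value below 0, -0.11) and 0 in YEPD.

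Of 24 heat shock factor target genes other than the 10 frames, 12 rose in YC (13.0% of all genes did) and 3 in YEPD (1.71% of all genes), and 0 fell in either medium. This list overlaps the groups above: 11 of the 12 and all 3 were counted there, and HSP78 (0.34, SE 0.0861), a mitochondrial disaggregase gene, was the other one in YC. Their median was 0.17 in YC and 0.07 in YEPD. Of 32 general stress genes, 20 rose and 1 fell in YC with a median of 0.27. HSP12 is among the 20 and was also counted above. Of all genes, 13.0% rose and 11.8% fell in YC. In YEPD 0 of the 32 passed in limma, with a median of 0.03. The 1 at an unadjusted p under 0.05 was HSP12, with a value below 0 (-0.28).

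**Figure D4:**
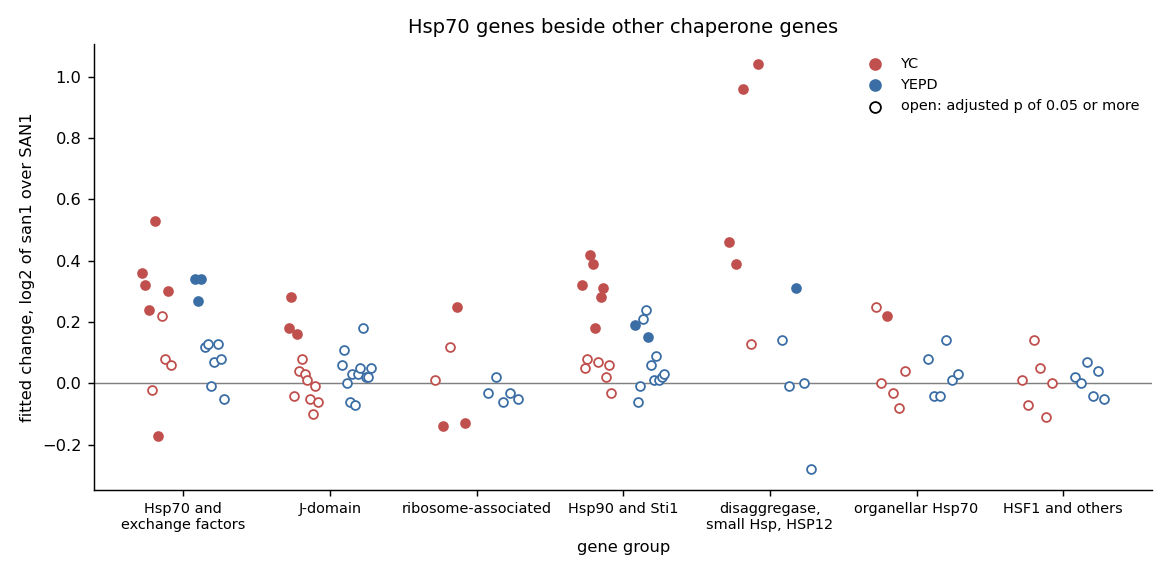
Fitted change (vertical axis, log2 of san1 over SAN1) of each gene in 7 groups (horizontal axis), with YC in red on the left and YEPD in blue on the right, and open points where the adjusted p was 0.05 or more. The Hsp70, Hsp90 and disaggregase groups hold filled points up to 0.53, 0.42 and 1.04 in YC, and the HSF1 group holds none.

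Over the 12 arrays, the genes nearest to a called frame were taken as those with the smallest root mean square difference among 4651 genes measured throughout. Besides SSA2, those nearest to SSA1 were HSP82 (0.102) and YAL004W (0.129). Those nearest to SSA2, after SSA1, were the subtelomeric helicase gene YRF1-2 (0.098) and the frame YBL113C (0.106). YAL004W lay closest to HMG1 (0.114), an HMG-CoA reductase gene, ahead of SSA1 (0.129), and then to YFL067W (0.147). SSA4 had no gene as near: MSC1 (0.131), STI1 (0.166) and UBX6 (0.172) came first. SSB1 was nearest to YPQ2 (0.056), EPT1 and AMN1 (0.064 each), and SSE2 to HXT6 (0.094), a glucose transporter gene, ADE17 (0.094) and FMP48 (0.097).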

How the data were processed

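The table deposited by the authors holds log ratios, read here as log2, with 24 to 368 of 6204 rows empty on an array. Its log base, scanner, background correction and normalization are not stated in any label or header used here. The deposited column medians lay between -0.0029 and 0.0033. YC arrays 1 to 3 are described as YEPD in their description field, and the titles and source names (YC) were followed. SAN1 was negative as deposited where channel 1 held SAN1 RNA, so values were read as channel 2 over channel 1 and turned to san1 over SAN1. Of 6204 rows, 5704 matched a locus tag and 42 a synonym of RefSeq assembly R64, used for names and gene order only. The other 458, YAL004W among them, kept the file's name, and 27 genes with several rows were averaged. Genes needed 2 values per dye orientation of each medium, which removed 287. A mean for each medium and 1 dye term shared by them were fitted with limma 3.58.1 in R 4.3.3, two-sided. The fit was tested on simulated data with errors independent between arrays, so any shared RNA was not covered. At a size of 0.2 it recovered 72% of changes in YC, 36% in YEPD and 32% for the difference. At 0.4 it recovered 88%, 88% and 83%. Of its calls, 2.44%, 7.46% and 4.17% were false. Both simulated media had the same design, spread per gene and number of changed genes (50 of each size). The 72% against 36% is thus no measure of lower power in YEPD. In the data the media differed in the genes called (1462 in YC, 120 in YEPD), which the simulation did not copy. Changes near 0.2 can miss the threshold in either medium and for the difference. The dye term passed for 16.4% of genes, SSA1 among them (-0.14, adjusted p = 0.03). YEPD arrays 4 and 6 differed less (SD 0.106) than other arrays of 1 medium and orientation (0.155 to 0.247), and their average was tried as 1 array. The members and gene lists were chosen with earlier results of these data known. Named genes are the 10 members, up to 4 called genes of a list by lowest p, a set of Hsp70 partners, genes beside the members, and the 3 nearest genes of each called member. The closing section gives the effect of the alternatives on the counts of calls.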

Additional observations from a re-analysis of the deposited data

Results flagged for a closer look

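The change of SSA4 differed between the media by the interaction contrast of the fit: 0.40 higher in YC than in YEPD (limma adjusted p = 0.0042), with all 6 YC arrays above all 6 YEPD arrays. SSB2 on YC array 1, at -0.09, lay apart from the other 5 YC values of that gene, by a gap that took up 0.65 of the range. Such a gap was looked for in 20 groups of 5 or 6 arrays, where chance gives about 1 in 20.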

How the results depend on the processing

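The number of members called in YC was 6 and stayed between 4 and 7 under all alternatives, 5 to 6 with 1 array left out. In YEPD it was 3, and 1 without the dye term, 0 with arrays n and n plus 3 averaged, 2 with YEPD arrays 4 and 6 averaged and without YC arrays 2 and 5, and 1 to 3 with 1 array left out. It was 4 with a dye term per medium, without YC arrays 1 and 4, and in a fit of the YEPD arrays alone. It was 1, SSA1, without YEPD array 1 and without YEPD array 6. For the difference between the media it was 1, and 0 with arrays averaged, 2 without YC arrays 1 and 4, and 1 to 2 with 1 array left out. The count was 2 without YC array 1, YC array 3 or YEPD array 2. With the array number as a replicate block it was 6, 3 and 1 for YC, YEPD and the difference. Same-numbered arrays of the 2 media did not deviate together (r -0.34 to 0.22 over 6 numbers), so the numbers were not taken as pairs across media. That check did not cover arrays n and n plus 3 within a medium, and whether those are pairs was not tested. Over all genes the block called 901, 88 and 46, averaging 816, 65 and 3, and the fit as reported 1462, 120 and 574. Without the dye term, 1071, 82 and 244 genes were called, and with YEPD arrays 4 and 6 averaged 1364, 82 and 200.

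Signs changed only for values that had not passed. SSA3 in YC was 0.02 with arrays averaged and without YC arrays 1 and 4, and -0.08 to 0.02 with 1 array left out. The difference between media for SSA1 was -0.02 with arrays scaled to equal spread, -0.09 without YC arrays 1 and 4, and -0.03 to 0.07 with 1 array left out. For SSA2 it was -0.01, -0.07 and -0.01 to 0.07. With 1 array left out, SSB1 in YEPD was -0.03 to 0.01 and SSB2 in YEPD -0.01 to 0.16. SSE1 in YEPD passed without YC arrays 1 and 4 (0.13, adjusted p = 0.04). Of 758 values recomputed for single genes, 701 kept their direction and side of the threshold. The cause of these shifts was not tested. The number of arrays limits the precision, and the table holds no signal over background.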

Other observations

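Of 16 measured and tested genes directly beside a member, HO (beside SSB1, 0.25), YNL208W (beside SSB2, 0.29) and DPC25 (beside SSE1, 0.16) rose in YC, and PAU17 (beside SSA2, -0.14) and MER1 (beside SSB2, -0.12) fell. Of all genes tested, 13.0% rose and 11.8% fell in YC, so 3 and 2 of 16 lie near the background. In YEPD 0 of the 16 passed in limma, and 0 had an unadjusted p under 0.05. The genes on either side of SSA4, RPS8B (0.10, adjusted p = 0.055) and RTT105 (-0.03, adjusted p = 0.52), did not pass in YC.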
